A study of Mus musculus with 18 samples.

Results

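The change in liver gene expression that CMPF treatment shared across 2 mouse models was measured on 12 of the 18 arrays of the study, all from mice on a high-fat diet. The 12 arrays were taken by their titles: 6 from mice given CMPF and 6 from mice given vehicle. All came from liver of wildtype CD1 mice, an outbred stock, and the diet supplied 60% of its energy as fat. In the prevention model, CMPF at 6 mg/kg per day or vehicle was given for 1 week, and the diet then ran for 4 weeks per the sample labels, or up to 5 weeks per the series text. In the reversal model the diet ran for 6 weeks first, and the same dose or vehicle was then given for 2 weeks. Each model had 3 vehicle and 3 CMPF arrays, and 3 further arrays in each model came from chow-fed mice given no CMPF, which are given here as levels, and which also entered the filter on dim probe sets and 1 alternative fit. The prevention livers were therefore taken weeks after the last dose and the reversal livers at the end of dosing, so the shared effect is an average over different intervals. The vehicle and the age of the mice are not given in the sources used here. The sex of the mice was not among the sample details used. The labels do not say that the arrays of a group are from different animals. Each p below therefore measures the spread between arrays, which may be partly technical. In the fit of the shared effect, this spread also contains any difference of the CMPF effect between the models.

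CMPF (3-carboxy-4-methyl-5-propyl-2-furanpropanoic acid) is a furan dicarboxylic acid that circulates in blood as a metabolite of furan fatty acids, which fish oil supplies. It is carried by organic anion transporters and bound by albumin. The liver makes, stores, oxidises and exports fatty acids, and on a high-fat diet it fills with triglyceride. Its secreted proteins fold in the endoplasmic reticulum (ER), where chaperones are made in larger amounts when unfolded protein collects.

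In the prevention model, CMPF arrays 2 and 3 carried almost the same values. Of 13221 genes, 0 had a gap over 2-fold between this pair, while any of the remaining 152 array pairs had at least 115 such genes. The pair was averaged and counted as 1 sample, which left 11 samples, 5 with CMPF and 6 with vehicle. Values are the deposited log2 signals. The effect of a gene is its CMPF minus vehicle difference in log2 units, with model as a block, its standard error (SE) and an adjusted p from limma over all 13221 genes. A level of one gene is never set against that of another gene, because probe sets differ in brightness.

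The shared effect of CMPF passed the adjusted threshold of 0.05 in 2 of 13221 genes (0.0151%), Klf10 and Coq10b, and both rose. No gene fell past the threshold. At an unadjusted p under 0.05 there were 660 genes (4.99%), 373 higher (2.82%) and 287 lower (2.17%), where the threshold alone sets 5%. The median effect of all genes was 0.006 on the log2 scale. CMPF and vehicle samples did not overlap in either model, in the same direction, for 114 genes (0.862%), 56 higher (0.424%) and 58 lower (0.439%). With so few samples per group, some genes separate in this way through sample order alone. Of the 200 assignments of treatment labels within models, 2 put the CMPF samples of a gene on the same side in both models. The 0.862% was not above that share, so a lack of overlap carries little weight for a gene below. The effects within the 2 models had a Pearson r of -0.018 across the 13221 genes, which are not independent replicates, and 43.8% of the genes had the same sign in both.

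Klf10 encodes a Krüppel-like zinc-finger transcription factor that is induced by TGF-beta and oscillates with the clock in liver. Its log2 signal was 6.15, 5.91 and 5.92 in the prevention vehicle samples and 6.90 and 6.89 in the prevention CMPF samples. Reversal samples were at 7.23, 6.97 and 7.24 with vehicle and 7.69, 8.04 and 7.99 with CMPF. Each CMPF sample lay above every vehicle sample of its own model; levels are not compared across models, whose array means differ. The shared effect was 0.82 ± 0.094 (SE, 5 against 6 samples; 95% interval 0.62 to 1.03), a 1.77-fold rise with an adjusted p of 0.0168. It was 0.90 in the prevention model and 0.76 in the reversal model. Chow-fed livers were at 6.16 ± 0.50 (SD, n = 3) in the prevention model and at 6.64 ± 0.39 (SD, n = 3) in the reversal model.

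Coq10b encodes a mitochondrial protein that binds coenzyme Q and is needed for its function in the respiratory chain. Its log2 signal was 7.88, 8.04 and 7.84 with vehicle and 8.42 and 8.57 with CMPF in the prevention model. Reversal samples were at 8.30, 8.31 and 8.26 with vehicle and 8.88, 9.02 and 8.86 with CMPF. Here too the groups did not overlap within a model, and the 3 reversal vehicle samples lay within 0.05 of each other. The shared effect was 0.61 ± 0.0693 (SE; 95% interval 0.45 to 0.76), a 1.52-fold rise with an adjusted p of 0.0168, and the within-model values were 0.58 and 0.63. A second probe set of the gene gave 0.64. Chow-fed livers were at 8.51 ± 0.11 (SD, n = 3) and 7.49 ± 0.34 (SD, n = 3), so the prevention chow mean lay between the CMPF samples of that model and the reversal chow level lay below both diet groups.

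The calls depended on single arrays. Among the 12 fits below, those without prevention CMPF 2 or prevention CMPF 3 removed no counted sample, because the near-identical array stayed. Both genes passed in these fits (limma adjusted p = 0.022 and 0.0189), which therefore say little about stability. With 1 array left out at a time, the effect of Klf10 stayed between 0.79 and 0.89 and that of Coq10b between 0.58 and 0.64, but the adjusted p stayed under 0.05 in 5 of 12 fits for Klf10 and in 4 of 12 for Coq10b. Neither gene passed without prevention vehicle 1, prevention CMPF 1, any of the 3 reversal vehicle samples, reversal CMPF 2 or reversal CMPF 3, and Coq10b also did not pass without reversal CMPF 1 (adjusted p = 0.0878). The highest adjusted p, reached without prevention CMPF 1, was 0.135 for Klf10 and 0.103 for Coq10b. Without both near-identical arrays it was 0.133 for either gene. Coq10b alone missed the threshold after quantile normalisation (0.117), after cyclic loess (0.0878) and with the mean of its probe sets (0.737). In a fit that included the chow arrays the adjusted p was 0.184 for Klf10 and 0.149 for Coq10b. With the replicate number as a block in limma it was 0.187 for either gene.

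The promoter of Coq10b, a window of 300 bases around its start in RefSeq (GRCm38.p6, chr1:55052520-55052819, plus strand), is shown because it is 1 of the 2 genes that passed. No promoter was matched for Klf10, the other gene, so the 2 cannot be compared. It was searched on both strands for CGTCA, the core of the cAMP response element, for the full palindrome TGACGTCA and for the E-box CACGTG, which clock factors bind. Capitals mark the matches, 4 of CGTCA and 1 of CACGTG, which directly precedes the second CGTCA.
Coq10b promoter: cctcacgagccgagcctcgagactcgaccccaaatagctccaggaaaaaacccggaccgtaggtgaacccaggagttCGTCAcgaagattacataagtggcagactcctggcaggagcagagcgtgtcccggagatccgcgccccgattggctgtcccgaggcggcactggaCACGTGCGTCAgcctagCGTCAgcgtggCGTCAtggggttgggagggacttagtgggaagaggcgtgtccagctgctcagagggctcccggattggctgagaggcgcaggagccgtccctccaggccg
CGTCA stood in 20.8% of 32851 RefSeq promoters of the same length, and 76 of them (0.231%) held 4 or more. That cut is the number found in Coq10b itself, so the share does not test whether its promoter is unusual. CACGTG stood in 7.15% and TGACGTCA in 1.79% of promoters, and Coq10b had no TGACGTCA in this window. A match describes the letters only.

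**Figure D1:**
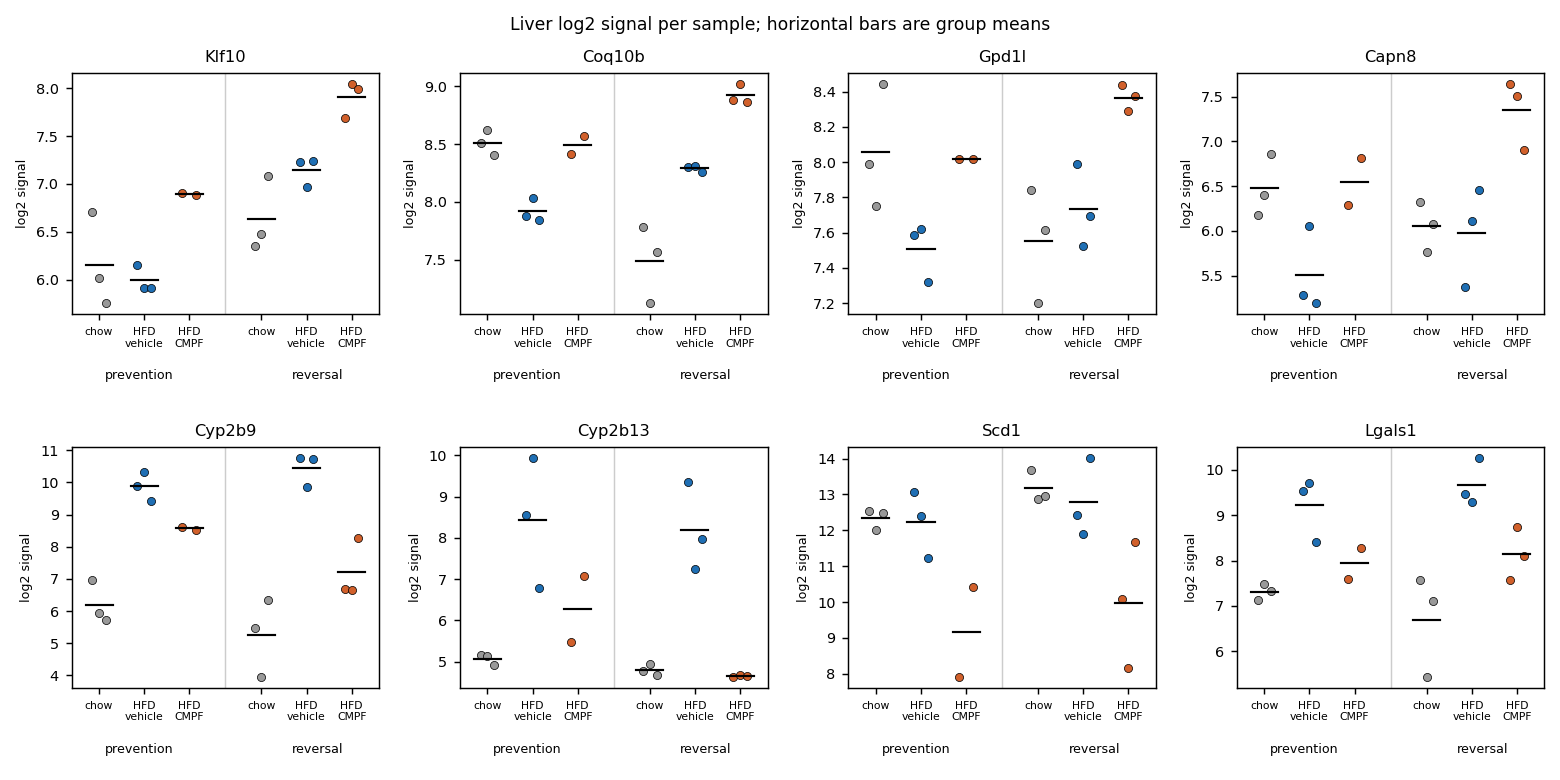
Log2 signal (vertical axis) of 8 genes in each sample, by group from chow to vehicle and CMPF on the high-fat diet in the prevention and the reversal model; points are samples and horizontal bars are group means. In the Klf10 and Coq10b panels every CMPF point lies above every vehicle point of its own model, while the Scd1 and Cyp2b13 panels spread over several log2 units within a group.

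The genes described next were chosen by the smallest p in each direction, and later ones from the gene lists, from 12 metabolic genes always given or, where stated, after their values were seen. None of them passed, so their values are descriptions. Of the 12 with the smallest p among higher genes, Klf10 and Coq10b included, 10 did not overlap between CMPF and vehicle in either model, and of the 12 lower genes 7 did not. These genes were selected on the same contrast, so those counts carry no weight against the 0.862% among all genes. The adjusted p was 0.376 to 0.514 for the remaining 10 higher genes and 0.40 to 0.514 for the 12 lower ones.

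Gpd1l, a glycerol-3-phosphate dehydrogenase-like enzyme, was at 7.58, 7.62 and 7.32 with vehicle and 8.02 and 8.02 with CMPF in the prevention model. Its reversal samples were at 7.99, 7.52 and 7.69 with vehicle and 8.44, 8.29 and 8.38 with CMPF, an effect of 0.58 ± 0.0963 (SE, adjusted p = 0.376). The groups did not overlap within either model. Ak4, the adenylate kinase of the mitochondrial matrix, had an effect of 0.63 (0.60 and 0.66 in the prevention and reversal models). Its CMPF samples were within 10.47 to 10.63 in both models, above vehicle samples of 9.59 to 10.26. Slc25a33, a mitochondrial carrier of pyrimidine nucleotides, had an effect of 0.49, and Pgm2l1, which makes glucose 1,6-bisphosphate, one of 0.53.

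Capn8, a calpain protease, had the largest effect of the 12 at 1.22 ± 0.236 (SE, adjusted p = 0.472; 2.33-fold). It was at 5.29, 6.06 and 5.19 with vehicle and 6.29 and 6.82 with CMPF in the prevention model, and at 5.37, 6.11 and 6.45 with vehicle and 7.64, 7.5 and 6.90 with CMPF in the reversal model. Its vehicle samples spread by over 1 log2 unit in the reversal model and still lay below the CMPF samples. Map2k6, the kinase that activates p38, had an effect of 1.1 (0.69 and 1.43), and its prevention samples overlapped. C6, a component of the membrane attack complex of complement, had an effect of 0.95, with prevention vehicle samples at 7.94, 7.94 and 7.99 against CMPF samples at 9.53 and 9.06. C6 vehicle samples of the reversal model ran from 8.40 to 9.63 and the CMPF samples from 9.75 to 9.83. Rora, a nuclear receptor that activates the clock gene Bmal1, had an effect of 0.42. Maco1, an ER membrane protein, had one of 0.45 and N4bp2l1 one of 0.86.

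**Figure D2:**
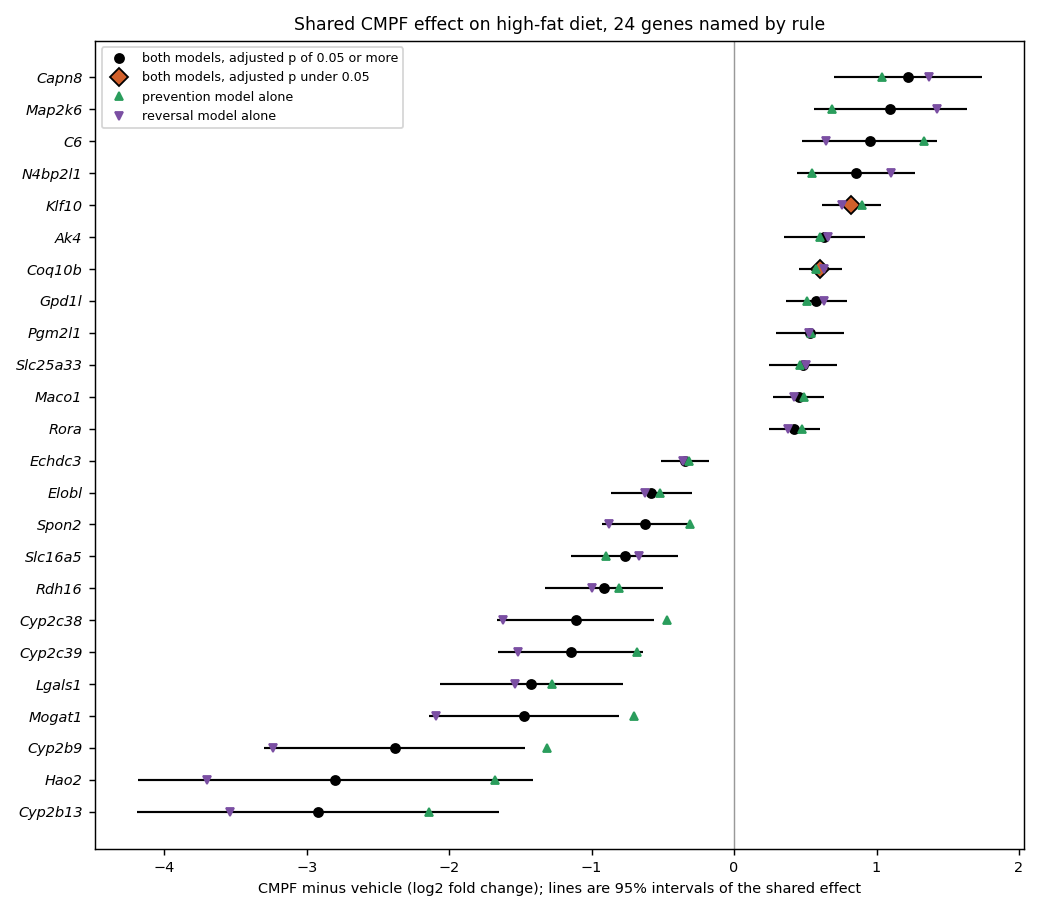
Shared CMPF effect (horizontal axis, log2 fold change of CMPF over vehicle on the high-fat diet) of the 12 higher and 12 lower genes with the smallest p; lines are 95% intervals and triangles the values within each model. Klf10 and Coq10b, drawn as diamonds, passed the adjusted threshold with short intervals; the lower genes reach further from 0, to -2.92 for Cyp2b13, with wide intervals.

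The lower genes were led by cytochromes of the Cyp2b family, oxidases of drugs and steroids that are more abundant in female than in male mouse liver. Cyp2b9 was at 9.90, 10.32 and 9.42 with vehicle and 8.61 and 8.53 with CMPF in the prevention model. In the reversal model it was at 10.76, 9.85 and 10.73 with vehicle and 6.69, 6.65 and 8.28 with CMPF. The effect was -2.38 ± 0.417 (SE, adjusted p = 0.40; 95% interval -3.30 to -1.47), without overlap in either model. The prevention value was -1.31 and the reversal value -3.24, and their difference was not past the threshold (adjusted p = 0.377). Chow-fed livers were at 6.2 ± 0.67 (SD, n = 3) and 5.26 ± 1.22 (SD, n = 3).

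Cyp2b13 had an effect of -2.92 ± 0.578 (SE, adjusted p = 0.472). The reversal CMPF samples were at 4.62, 4.68 and 4.66 against vehicle samples at 9.36, 7.25 and 7.97. In the prevention model vehicle samples at 8.55, 9.94 and 6.77 overlapped CMPF samples at 5.47 and 7.09. Chow-fed livers were at 5.07 ± 0.13 and 4.80 ± 0.13 (SD, n = 3 each). The reversal CMPF samples lay close to the median signal of all probe sets on their arrays, which was 4.613, 4.632 and 4.599. Whether the transcript was detected at such low signals was not tested. The nearness of the reversal CMPF samples to chow therefore carries little weight, and the size of the effect is uncertain. Without prevention vehicle 3, the lowest of the 6 vehicle samples, the effect of Cyp2b13 was -3.31 with an adjusted p of 0.0491. Without the same array Cyp2c39 also passed (-1.32, adjusted p = 0.0317).

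The promoters of the 2 Cyp2b genes (RefSeq GRCm38.p6; Cyp2b9 at chr7:26173159-26173458 and Cyp2b13 at chr7:26061245-26061544, both plus strand) are shown because the genes are close copies and short probes may detect either transcript. The windows agree at 298 of 300 bases. They differ by T48C and C104T, with the base of Cyp2b9 first and positions counted from 1 at the 5′ end of the window; capitals mark these positions.
Cyp2b9 promoter: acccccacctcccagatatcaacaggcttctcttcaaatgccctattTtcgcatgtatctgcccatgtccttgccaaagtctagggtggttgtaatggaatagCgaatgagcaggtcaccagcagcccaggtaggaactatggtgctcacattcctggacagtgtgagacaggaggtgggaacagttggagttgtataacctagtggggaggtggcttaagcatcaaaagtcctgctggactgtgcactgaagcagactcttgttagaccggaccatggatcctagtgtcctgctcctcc
Cyp2b13 promoter: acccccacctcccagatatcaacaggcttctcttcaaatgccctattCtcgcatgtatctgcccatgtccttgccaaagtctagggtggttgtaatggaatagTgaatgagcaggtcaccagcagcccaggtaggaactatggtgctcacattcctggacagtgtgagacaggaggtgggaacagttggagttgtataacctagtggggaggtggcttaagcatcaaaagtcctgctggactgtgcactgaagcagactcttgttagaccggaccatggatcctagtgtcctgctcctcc
The array measures transcripts and not promoters. The windows lie around the start and run into the transcript, so they show only how alike the pair is there. Probe sequences were not compared, so whether the values of Cyp2b9 and Cyp2b13 are independent measurements is not known.

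Other lower genes act on lipids, retinoids and hydroxy acids. Hao2, a peroxisomal oxidase of long-chain hydroxy acids, had an effect of -2.80 ± 0.631 (SE, adjusted p = 0.514). Its reversal vehicle samples spread from 5.28 to 9.07, and its reversal CMPF samples were at 3.94, 3.57 and 3.93. These CMPF values lay below the median signal of all probe sets on the same arrays. Whether Hao2 was detected there was not tested, so the size of its effect is uncertain. Prevention vehicle samples were at 6.09, 7.38 and 6.38 and CMPF samples at 5.31 and 4.57. No CMPF sample reached a vehicle sample of its model, although 1 reversal vehicle sample stood 2 log2 units or more below the other two.

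Cyp2c39 and Cyp2c38, cytochromes of a family that oxidises arachidonic acid and retinoids, had effects of -1.15 and -1.11. Each overlapped between groups in the prevention model (-0.68 and -0.47) and not in the reversal model (-1.52 and -1.63). Mogat1, a monoacylglycerol acyltransferase that makes diacylglycerol, was at 6.52, 6.56 and 5.61 with vehicle and 5.26 and 5.79 with CMPF in the prevention model. It was at 6.39, 6.41 and 7.34 with vehicle and 4.58, 4.44 and 4.83 with CMPF in the reversal model, an effect of -1.48 ± 0.304 (SE, adjusted p = 0.472). The reversal groups were thus separated by more than 1.5 log2 units and the prevention groups overlapped. Rdh16, a retinol dehydrogenase, had an effect of -0.91, without overlap in either model. Slc16a5, of the monocarboxylate transporter family, was at -0.77 and Echdc3, an enoyl-CoA hydratase-like protein, at -0.34, both also without overlap. Elobl was at -0.58.

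Lgals1, a galactose-binding lectin made mostly by stromal and immune cells, was at 9.52, 9.72 and 8.42 with vehicle and 7.59 and 8.28 with CMPF in the prevention model. In the reversal model it was at 9.47, 9.29 and 10.26 with vehicle and 7.56, 8.73 and 8.11 with CMPF. The effect was -1.42 ± 0.293 (SE, adjusted p = 0.472), and a second probe set gave -1.53. In whole liver, fewer cells of a type and less RNA per cell cannot be told apart. The summed markers of stellate cells and fibroblasts, 6 of 6 tested, had mean log2 signals of 8.15 to 8.44 and 8.32 to 8.88 with vehicle and 8.0 to 8.30 and 8.27 to 8.55 with CMPF in the 2 models. Their part in the value of Lgals1 was not tested. Spon2, an extracellular matrix protein, had an effect of -0.62, with reversal samples of 6.08 to 6.22 with vehicle against 5.21 to 5.31 with CMPF. Its prevention samples overlapped, at 5.66, 4.95 and 5.24 with vehicle and 4.98 and 4.97 with CMPF.

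Scd1, the desaturase that makes monounsaturated fatty acids, had the most negative effect of all genes tested. It was at 13.08, 12.40 and 11.23 with vehicle and 7.91 and 10.41 with CMPF in the prevention model, and at 12.43, 11.90 and 14.02 with vehicle and 10.08, 8.17 and 11.69 with CMPF in the reversal model. The effect was -2.93 ± 0.673 (SE, adjusted p = 0.514; 95% interval -4.41 to -1.45), with -3.08 and -2.81 within the models. No CMPF sample reached a vehicle sample of its model, but the CMPF samples themselves differed by up to 3.5 log2 units. A second, dimmer probe set gave -1.49. Chow-fed livers were at 12.34 ± 0.30 and 13.18 ± 0.45 (SD, n = 3 each).

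The other regulators and enzymes of lipid and glucose metabolism that were always reported did not share this size. Cd36, the fatty acid translocase, had an effect of -1.63 ± 0.488 (SE, adjusted p = 0.778), mostly from the reversal model (-2.44 against -0.62). Its 2 other probe sets gave -1.63 and -1.64. Acacb, the acetyl-CoA carboxylase that restrains fatty acid oxidation, had -0.66 and overlapped in the reversal model. Fasn, fatty acid synthase, was at -0.21 (95% interval -0.65 to 0.22) and Acaca, the lipogenic carboxylase, at -0.08 (-0.32 to 0.15). The regulator Srebf1 was at 0.08 (-0.50 to 0.67). Cpt1a, which admits fatty acids to mitochondria, was at 0.04 (-0.18 to 0.26), and its regulator Ppara at 0.07 (-0.28 to 0.42).

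Of the 12 genes always reported, 6 had opposite signs in the 2 models: Srebf1 (0.27 in prevention, -0.06 in reversal), Cpt1a (0.11, -0.02), Ppara (-0.13, 0.23), G6pc (-0.06, 0.77), Fgf21 and Pparg. Among all genes only 43.8% had the same sign in both, so opposite signs were not particular to these genes. Fgf21, a hormone that liver secretes under metabolic stress, was at 4.73, 6.00 and 5.72 with vehicle and 7.97 and 7.08 with CMPF in the prevention model. Its reversal values were 6.19, 5.89 and 6.58 with vehicle and 5.74, 5.40 and 6.19 with CMPF. Its shared effect of 0.66 ± 0.449 (SE, adjusted p = 1.00) thus averaged 2.04 and -0.45. Pparg, the nuclear receptor of fat storage, averaged 0.33 and -0.94 to -0.37. The differences between models had adjusted p of 0.237 for Fgf21 and 0.172 for Pparg. Pck1, the enzyme that commits carbon to gluconeogenesis, had an effect of 0.81 ± 0.199 (SE, adjusted p = 0.546), with 0.63 and 0.95 within the models. G6pc, which releases glucose, was at 0.40 (95% interval -0.16 to 0.96), all of it from the reversal arrays.

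The 33 gene lists of liver functions were compared in the main fit. The list of ER folding and unfolded protein response genes had the largest share of members past an unadjusted p of 0.05. All 26 of its genes had positive effects, and 16 (61.5%) had an unadjusted p under 0.05, against 4.99% of all genes; none passed the adjusted threshold. The median effect was 0.39, against 0.006 for all genes. The list contains chaperones, disulfide isomerases, degradation factors and the stress sensors, and the lists were chosen with earlier results of these data known. Its rank did not hold without both near-identical arrays, where fewer folding genes and more glucocorticoid-induced genes had an unadjusted p under 0.05.

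Of the disulfide isomerases, Pdia6 was at 9.33, 9.46 and 8.98 with vehicle and 9.93 and 10.60 with CMPF in the prevention model. In the reversal model it was at 10.38, 10.44 and 9.90 with vehicle and 10.81, 10.43 and 10.63 with CMPF. The effect was 0.66 ± 0.178 (SE, adjusted p = 0.716), and the reversal groups overlapped. Among the chaperones, Hyou1 was at 9.28, 8.86 and 9.08 with vehicle and 10.21 and 10.18 with CMPF in the prevention model, and at 8.97, 9.46 and 9.12 with vehicle and 9.59, 10.49 and 9.05 with CMPF in the reversal model. Its effect was 0.79 ± 0.231 (SE, adjusted p = 0.773). The prevention groups of both genes were apart, and those of the reversal model were not.

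The following members were chosen after their values were seen. Hspa5, the main ER chaperone (BiP), was at 12.43, 12.03 and 12.10 with vehicle and 12.83 and 12.97 with CMPF in the prevention model, and at 13.28, 13.30 and 12.60 with vehicle and 13.18, 13.69 and 13.07 with CMPF in the reversal model. Its effect was 0.46 ± 0.170 (SE, adjusted p = 0.932). Creld2, an ER protein with disulfide isomerase activity, had the largest effect of the list at 1.18 ± 0.392 (SE, adjusted p = 0.879), and Derl3, which helps to remove misfolded proteins, followed at 1.14. Reversal CMPF 2 stood high in both, with 11.38 for Creld2 against 9.45 and 9.76 in the other reversal CMPF samples, and 9.98 for Derl3 against 8.20 and 7.42. Of the sensors and factors that start the response, Atf6 had an effect of 0.35 and was among the 16 with an unadjusted p under 0.05, while Ern1 (0.18) and Xbp1 (0.14) were not.

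Averaged over the 26 genes, the prevention vehicle samples were at 9.54, 9.40 and 9.33 and the CMPF samples at 10.01 and 10.19, without overlap. The reversal vehicle samples were at 10.36, 10.50 and 9.97 and the CMPF samples at 10.47, 10.92 and 10.40, with overlap. The median effect was 0.62 in the prevention model and 0.27 in the reversal model, where 24 of 26 genes were positive and none had an unadjusted p under 0.05. Chow-fed livers were at 10.06, 9.93 and 10.31 in the prevention model, within the range of its CMPF samples or close to it, and at 9.81, 9.35 and 10.28 in the reversal model. Leaving out 1 array, or both near-identical arrays, left 9 to 18 genes at an unadjusted p under 0.05, all positive, and medians of 0.33 to 0.48; the lowest values came without both near-identical arrays. Hepatocyte markers were close between treatments within a model, with means of 13.4 to 13.6 in the prevention samples and 13.8 to 13.9 in the reversal samples.

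**Figure D3:**
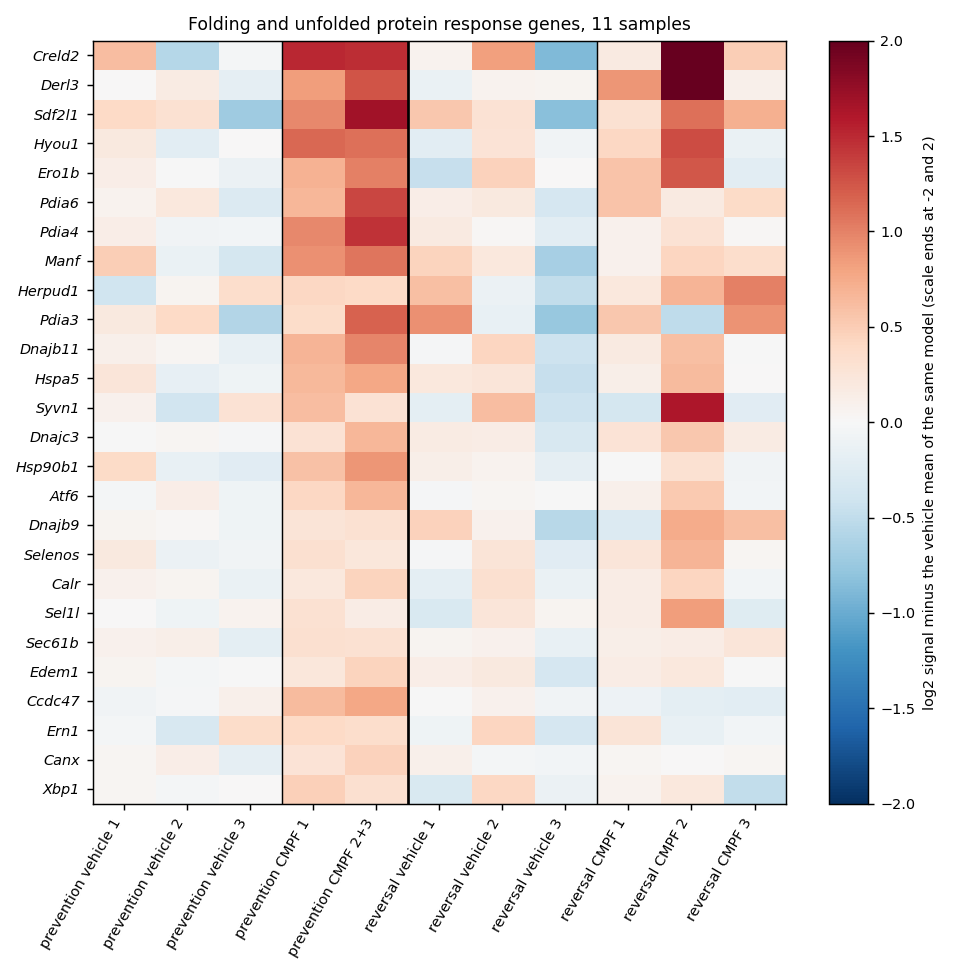
Log2 signal of 26 ER folding and unfolded protein response genes (rows) in 11 samples (columns), each relative to the vehicle mean of the same model; the colour scale ends at -2 and 2. The 2 prevention CMPF columns are red in nearly all rows, while among the reversal CMPF columns replicate 2 is the most red and replicates 1 and 3 are pale.

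Promoters of the list were compared with all RefSeq promoters for the ER stress response element (ERSE), the joint site of NF-Y and ATF6, searched on both strands as CCAAT and CCACG with 9 bases of any kind between them. RefSeq held promoters for 23 of the 26 genes, and 10 of the 23 (43.5%) carried the element, against 39 of 32851 promoters (0.119%). The 10 genes were Calr, Canx, Creld2, Derl3, Dnajc3, Ero1b, Hsp90b1, Hspa5, Pdia6 and Syvn1. The list was made of genes known for this response, so the share describes the list and not the effect of CMPF. Of the 10, Calr (0.24), Canx (0.17) and Syvn1 (0.39) had an unadjusted p above 0.05 and the other 7 had one below it. The promoters of 3 genes described above are shown with the conserved ends of the element in capitals: Hspa5 (chr2:34771840-34772139), Pdia6 (chr12:17266339-17266638) and Creld2 (chr15:88819396-88819695), all on the plus strand of GRCm38.p6, with the element of Creld2 on the opposite strand.
Hspa5 promoter: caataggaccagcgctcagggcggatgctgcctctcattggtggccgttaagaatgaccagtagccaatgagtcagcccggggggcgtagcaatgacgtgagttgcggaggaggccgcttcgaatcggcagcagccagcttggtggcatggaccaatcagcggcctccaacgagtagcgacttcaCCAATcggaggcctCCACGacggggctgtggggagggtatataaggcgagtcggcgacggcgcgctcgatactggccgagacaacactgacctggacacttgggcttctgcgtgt
Pdia6 promoter: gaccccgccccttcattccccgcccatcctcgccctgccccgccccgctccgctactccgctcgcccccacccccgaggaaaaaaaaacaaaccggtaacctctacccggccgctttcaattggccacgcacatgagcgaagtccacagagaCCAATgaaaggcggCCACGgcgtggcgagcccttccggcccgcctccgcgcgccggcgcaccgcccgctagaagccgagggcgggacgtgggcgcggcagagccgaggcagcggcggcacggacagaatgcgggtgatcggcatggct
Creld2 promoter: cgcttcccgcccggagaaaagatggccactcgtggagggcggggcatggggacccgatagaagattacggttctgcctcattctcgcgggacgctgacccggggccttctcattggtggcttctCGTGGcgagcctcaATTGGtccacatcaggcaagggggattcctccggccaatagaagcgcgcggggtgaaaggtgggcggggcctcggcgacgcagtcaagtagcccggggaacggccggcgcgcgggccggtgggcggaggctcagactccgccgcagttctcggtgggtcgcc

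The lists of genes that differ between male and female liver had medians of opposite sign. The sex of the mice was not used here, so the list names describe the genes and not the animals. Of 18 tested male-biased genes, 6 were higher and 1 was lower at an unadjusted p under 0.05, where the shares among all genes were 2.82% and 2.17%, with a median effect of 0.41 and none past the adjusted threshold. They included C6, described above, Serpina12 (1.1), an adipokine-like serpin, and Cyp7b1 (0.96), an oxysterol hydroxylase. The list mean was 8.93, 9.08 and 9.45 with vehicle and 9.86 and 9.69 with CMPF in the prevention model, without overlap. It was 9.52, 10.26 and 10.19 with vehicle and 10.40, 10.11 and 10.22 with CMPF in the reversal model, where reversal vehicle 1 stood low. Without prevention CMPF 1 the count of higher male-biased genes was 3.

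Of 12 tested female-biased genes, 6 were lower and none was higher at an unadjusted p under 0.05, against 2.17% and 2.82% of all genes, with a median of -0.36. They were Cyp2b9, Cyp2b13, Hao2, Cd36, Abcd2, a peroxisomal transporter of fatty acyl-CoA (-0.65), and Slc22a26, an organic anion transporter (-0.33); the last 2 were named after their values were seen. The list mean was 6.82, 6.95 and 6.38 with vehicle and 5.93 and 5.98 with CMPF in the prevention model, and 7.18, 6.25 and 6.94 with vehicle and 5.6, 5.47 and 5.88 with CMPF in the reversal model. CMPF samples lay below all vehicle samples of their model, and chow-fed samples lay between 5.40 and 5.71. The mean effect of the list was -0.97, further from 0 than its median, and rested largely on Cyp2b9 (-2.38), Cyp2b13 (-2.92) and Hao2 (-2.80). Those genes were already picked above by smallest p, and the Cyp2b pair may not be independent. The separation is therefore not a trait of the list as a whole. The chow and vehicle samples differ in diet as well as in this list, and the levels are given side by side only.

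The circadian list had 9 higher and no lower genes of 24 at an unadjusted p under 0.05, where 2.82% of all genes were higher, and a median of 0.25. Beside Rora these included Nampt, the enzyme that makes NAD from nicotinamide, with an effect of 0.46 (0.35 and 0.54) and no overlap in either model. The list's median was 0.03 in the prevention model and 0.37 in the reversal model, so most of the shared value came from the reversal arrays. The time of day at which livers were taken is not given in the sources used here. With 1 array left out the count of higher genes ran from 5 (without reversal vehicle 1) to 10.

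Glucocorticoid receptor and induced genes had 6 higher and no lower members of 17 at an unadjusted p under 0.05, where 2.82% of all genes were higher, and a median of 0.36. The median was 0.05 in the prevention model and 0.72 in the reversal model. Fkbp5, a co-chaperone of the receptor, was at 7.69, 8.24 and 7.58 with vehicle and 9.40, 9.43 and 10.00 with CMPF in the reversal model, and at 8.12, 8.28 and 8.16 with vehicle and 8.34 and 8.13 with CMPF in the prevention model. Its shared effect of 1.00 ± 0.293 (SE, adjusted p = 0.773) therefore came from the reversal samples, and the difference between models had an adjusted p of 0.172. A second, dimmer probe set of Fkbp5 gave a shared effect of only 0.14. Zbtb16, a zinc-finger repressor, had 1.47 with 0.16 and 2.52 within the models. The count of higher members ran from 3 (without prevention vehicle 1, reversal vehicle 3 or reversal CMPF 3) to 8 (without both near-identical arrays), and the median was 0.23 without reversal CMPF 1.

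**Figure D4:**
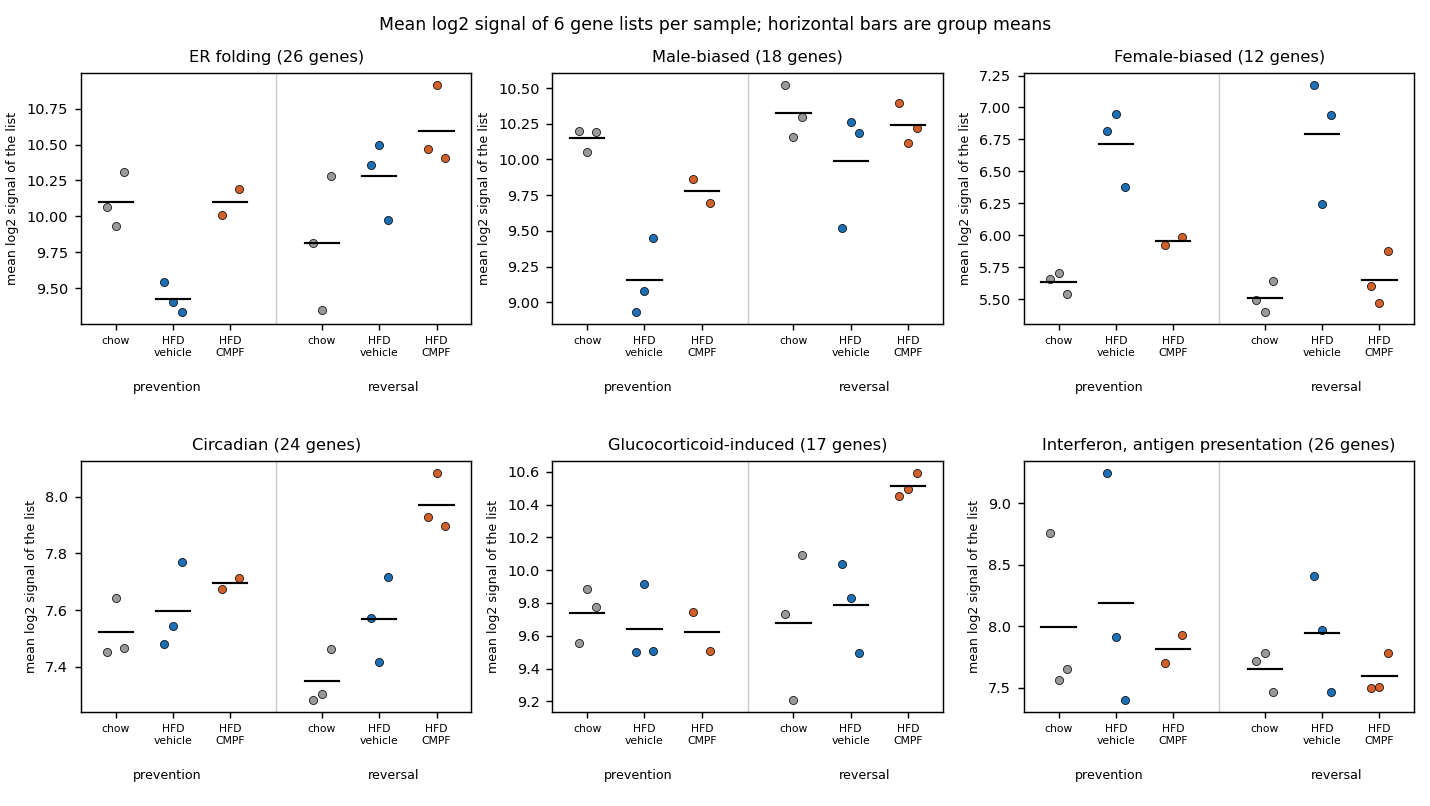
Mean log2 signal (vertical axis) of 6 gene lists in each sample, by group including chow; points are samples and bars are group means. The female-biased list is lower in every CMPF sample than in any vehicle sample of its model, with a mean that rests largely on Cyp2b9, Cyp2b13 and Hao2. The folding list is apart in the prevention model and overlaps in the reversal model, and prevention vehicle 1 stands above the rest in the interferon list.

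Lists of lipid handling had small medians and a few members far from 0. Of 26 triglyceride and lipid droplet genes, 5 were lower and none was higher at an unadjusted p under 0.05, against 2.17% and 2.82% of all genes, with a median of -0.14. They were Mogat1, Cd36, Vldlr, a lipoprotein receptor (-1.04 ± 0.278, SE, adjusted p = 0.707), and 2 droplet coat genes named after their values were seen, Plin2 (-0.27) and Plin4 (-0.52). Of 26 genes in the lipogenic list, 3 were lower and 1 was higher, with a median of -0.09, so the value of Scd1 was far from that of most members. The 1 higher gene was Cyp7b1, the oxysterol hydroxylase also counted in the male-biased and bile acid lists. Of 37 fatty acid oxidation genes, 2 were lower, the thioesterase Acot2 (-0.49) and the thiolase Acaa1a (-0.31), which is 5.41% against 4.99% of all genes. The 3 lipogenic genes became 1 without prevention vehicle 2, and the 2 oxidation genes became 1 without prevention vehicle 1, reversal vehicle 1, reversal CMPF 1 or both near-identical arrays. None of 19 cholesterol synthesis genes, 8 Cyp4 omega-hydroxylases, 14 organic anion transporters or 32 respiratory chain subunits had an unadjusted p under 0.05. The transporter list did not include Slc22a26, named above among the lower female-biased genes. Medians of these lists, in the same order, were 0.00, 0.18, -0.03 and -0.03. The cholesterol median was -0.22 in the prevention and 0.30 in the reversal model. Without both near-identical arrays 4 cholesterol genes were higher and the median was 0.33. With 1 array left out, up to 2 omega-hydroxylases (without prevention vehicle 3) and up to 3 transporters (without reversal CMPF 2) were higher, and at most 1 transporter and 1 respiratory chain subunit were lower.

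In glucose and amino acid metabolism, 5 of 25 gluconeogenesis and glycogen genes were higher and none was lower at an unadjusted p under 0.05, with a median of 0.13. For this and the next 4 lists, the shares among all genes were 2.82% higher and 2.17% lower. They included Pck1, Foxo1 (0.48), a transcription factor that drives gluconeogenesis, and Tat (0.45), which degrades tyrosine. Of 22 ATF4 targets of the integrated stress response, 5 were higher and 1, Vldlr, was lower, with a median of 0.14; Asns, asparagine synthetase, had 0.45 and Trib3, a pseudokinase, 0.55. Bile acid genes had 4 higher and 1 lower of 21, among them Cyp7b1 and Nr0b2 (0.78), the repressor also called SHP. Of 22 nuclear receptors and coregulators, 3 were higher, among them Rora and Hnf4a (0.25), the master regulator of hepatocyte genes. Pericentral genes had 4 lower and none higher of 16, including Rhbg, an ammonium transporter (-0.59). These short counts varied with single arrays: the 5 gluconeogenic genes became 2 without prevention CMPF 1 and 3 without prevention vehicle 1 or 2, reversal vehicle 2, reversal CMPF 3 or both near-identical arrays. The 5 ATF4 targets became 3 without prevention vehicle 3, prevention CMPF 1, reversal vehicle 3 or reversal CMPF 2. The 4 bile acid genes became 2 without reversal vehicle 2 or reversal CMPF 1, and 1 without both near-identical arrays. The 3 nuclear receptor genes became 5 without prevention vehicle 3, reversal CMPF 3 or both near-identical arrays.

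**Figure D5:**
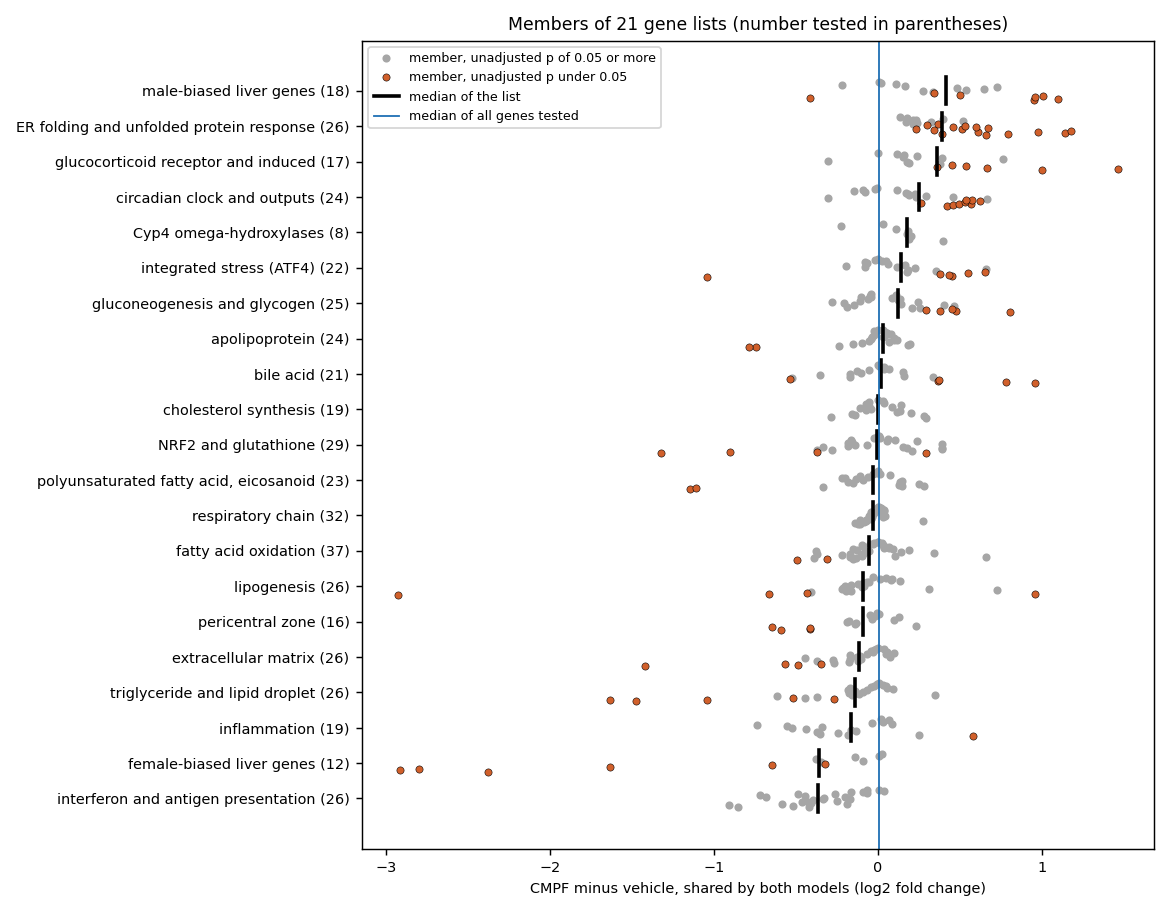
Shared CMPF effect (horizontal axis, log2 fold change) of every tested member of 21 gene lists, ordered by the list median (black bar); orange points have an unadjusted p under 0.05 and grey points do not. The folding list is the only one of the 21 with all members above 0, and most medians lie near the blue line, the median of all genes at 0.006.

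Immune and stromal genes varied with single arrays. In the interferon and antigen presentation list 24 of 26 genes had negative effects, with a median of -0.37, but none had an unadjusted p under 0.05. Prevention vehicle 1 had a list mean of 9.25 against 7.91 and 7.40 in the other prevention vehicle samples, and without it the median was -0.14 and 5 genes were positive. Without reversal vehicle 1 the median was -0.18. Prevention vehicle 1 was also the highest of its group in Kupffer cell and macrophage markers (8.83 against 7.65 and 6.56) and in monocyte and neutrophil markers (7.08 against 5.93 and 5.92). All 7 Kupffer cell and macrophage markers had negative effects, with a median of -0.20, while the median was -0.55 in the prevention and 0.08 in the reversal model. Group ranges of 6.56 to 8.83 and 7.56 to 8.21 with vehicle overlapped 6.61 to 7.79 and 7.41 to 8.0 with CMPF. Of 26 extracellular matrix genes, 4 were lower at an unadjusted p under 0.05, against 2.17% of all genes, namely Lgals1, Col1a2 (-0.49), Col1a1 (-0.34) and Col3a1 (-0.57), the last 3 being fibrillar collagen chains. The 4 became 2 without prevention vehicle 1, prevention CMPF 1, reversal vehicle 1, reversal vehicle 3 or reversal CMPF 1. None of the 4 adipocyte markers was bright enough to be tested.

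The treatments were close in RNA integrity. The 3′ to 5′ index of the Gapdh and beta-actin control probe sets, in log2 units and higher where RNA is shorter, was 2.84 ± 0.303 and 2.62 ± 0.969 (SD, n = 3 each) with vehicle and 2.95 ± 0.285 (SD, n = 2) and 2.63 ± 0.957 (SD, n = 3) with CMPF. CMPF minus vehicle was 0.05, with a two-sided exact permutation p of 0.86 over 200 assignments within models. With the index as a covariate both Klf10 and Coq10b passed (adjusted p = 0.0249).

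The CMPF effect differed between the models past the adjusted threshold for none of the 13221 genes, while 1343 genes (10.2%) had an unadjusted p under 0.05 for that difference in limma. For Klf10 the difference between models was 0.14 ± 0.191 (SE, adjusted p = 0.834) and for Coq10b the adjusted p was 0.911, so neither of the 2 values within a model was shown to differ from the other.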

How the data were processed

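Liver RNA was hybridised to Affymetrix expression arrays from 200 ng RNA, per the labels' protocols. The deposited values are log2 signals made by the authors with RMA in Affymetrix Expression Console 1.1, per the submitters' processing notes. The array means fall at 2 levels, 1 for each model. Of 45101 probe sets, 34945 carried 1 gene symbol. The dimmest 40% by mean signal over the 18 arrays were left out, and the brightest remaining probe set stood for each of 13221 genes. Dimmer probe sets past this filter are printed above for some genes only. Some lay nearer 0: Ak4 (0.005 and 0.093, beside 0.71), Pgm2l1 (-0.011, beside 0.38) and Spon2 (-0.051). The same held for Serpina12 (0.19), Pdia6 (0.16), Acot2 (0.032) and Vldlr (-0.37 and -0.30). Others were closer to the one used, such as Cyp7b1 (1.07) and N4bp2l1 (0.61). limma 3.58.1 in R 4.3.3 fitted model and treatment to 11 samples (8 residual degrees of freedom), with Benjamini-Hochberg adjustment over all genes. Values within a model and their difference came from the 4 group means of the same samples. A gene's intervals are 95%. The number of arrays limits the precision.

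Singly described genes were, per direction, those past the threshold and then the smallest p up to 12; from every list its 2 smallest p; and 12 metabolic genes given always. Predicted genes were not named. The comparison, members and lists were chosen with earlier results of these data known. The steps were tested on simulated data. Alternatives covered the averaged pair, the samples in the fit, normalisation, filters, probe sets, priors, array weights, RNA integrity, replicate blocks and each array left out.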

Additional observations from a re-analysis of the deposited data

How the results depend on the processing

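The count of 2 genes past the threshold was 0 with the chow groups in the fit, with the prevention or the reversal arrays alone, and with the replicate block; it was 1 (Klf10) after quantile or cyclic loess normalisation and with probe sets of a gene averaged, and 3 with the plain mean of the within-model effects. It ran from 0 to 5 with 1 array left out, and was 0 without both near-identical arrays, an alternative added after seeing the data. The limma fits with 0 calls had 467 to 1534 genes at an unadjusted p under 0.05. The count of 0 genes that differed between models was 13 with the 12 arrays kept separate, 1 with array weights and 0 to 1 with 1 array left out. The cause was not tested. Whether replicate numbers pair the samples is not known. Same-numbered reversal samples correlated at -0.133, 0.393 and -0.161, and 1 of 3 reversal vehicle samples correlated best with its own number. These are too few pairs to decide, and pairs of the prevention model were not checked.

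Over all alternatives for the 102 genes named, 2784 values kept their direction and side of the threshold, 30 of Klf10 or Coq10b no longer passed, 2 newly passed and 32 changed sign, all near 0 or split between models. In the prevention arrays alone Ppara was -0.13, Pparg 0.33, G6pc -0.057, Jchain -0.36, Prss2 -0.11, Krt19 -0.29, Clec4g -0.12 and Ndufb8 0.010. In the reversal arrays alone Fgf21 was -0.45, Srebf1 -0.063, Cpt1a -0.021, Tm7sf2 0.13, Ighm 0.20, Cd3e 0.015 and Abcg2 -0.018. With the mean of probe sets Cpt1a was -0.019, Ighm 0.080 and Ccr2 -0.068; with array weights Jchain was -0.12; without both near-identical arrays Srebf1 was -0.025. With 1 array left out the ranges were -0.006 to 0.28 for Cela1, -0.0038 to 0.086 for Cpt1a, -0.36 to 0.0029 for Ighm, -0.17 to 0.44 for Jchain, -0.034 to 0.20 for Nkg7, -0.024 to 0.15 for Ppara and -0.047 to 0.28 for Srebf1.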
